A study of Mus musculus with 6 samples.

Results

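The urea cycle and glutamate nitrogen genes examined here were Cps1, Otc, Ass1, Asl, Nags, Slc25a13, Slc25a15, Gls2 and Glud1. They were picked out by gene name, as enzymes and carriers of these pathways and with earlier results of these data known, and all 9 are listed among the 23284 genes of the count files. Each was compared between livers of FGF19-treated and vehicle-treated mice. The mice were C57BL/6 and 8 weeks old, and all 6 had been fasted overnight. In the FGF19 group 3 mice received 1 mg/kg FGF19, the human counterpart of the mouse gut hormone FGF15, and in the vehicle group 3 mice received vehicle, each for 6 h while the fast went on. The labels name no engineered allele, and 1 library of total liver RNA was made from each mouse.

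The urea cycle turns the ammonia released from amino acids into urea, and in mammals it runs in full mainly in hepatocytes, with the highest capacity near the portal vein. Carbamoyl phosphate synthetase 1 (Cps1) and ornithine transcarbamylase (Otc) carry out the mitochondrial steps, and argininosuccinate synthetase (Ass1) and argininosuccinate lyase (Asl) act in the cytosol. N-acetylglutamate synthase (Nags) makes the activator that Cps1 requires, Slc25a13 carries aspartate out of mitochondria for Ass1, and Slc25a15 exchanges ornithine and citrulline across the inner membrane. Glutaminase 2 (Gls2) and glutamate dehydrogenase 1 (Glud1) release ammonia from glutamine and glutamate. Fasting is known to raise the need for this disposal, since amino acids are then burnt or turned into glucose.

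RefSeq promoters, given as the 250 bases before and 50 bases after a gene's start in build GRCm38.p6, were held for 6 of the 9 genes, namely Otc, Ass1, Nags, Slc25a13, Slc25a15 and Glud1. Those of Cps1, Asl and Gls2 were not used here. The study that produced these libraries dealt with DNA methylation at CpG sites, so the sequences below are shown for how widely these promoters differ in CpG content. They cover a gene with hardly any CpG (Otc), genes above the median of all promoters (Slc25a13 and Ass1) and a gene with very many (Glud1). Capitals mark the CG dinucleotides, and each sequence runs 5′ to 3′ along the strand of its gene.
Otc, chrX:10252055-10252354, plus strand: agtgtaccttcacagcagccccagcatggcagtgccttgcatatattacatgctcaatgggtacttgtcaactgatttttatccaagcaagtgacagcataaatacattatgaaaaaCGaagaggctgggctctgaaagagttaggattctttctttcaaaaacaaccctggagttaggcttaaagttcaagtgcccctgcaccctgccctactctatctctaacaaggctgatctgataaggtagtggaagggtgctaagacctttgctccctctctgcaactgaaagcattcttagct
Slc25a13, chr6:6217124-6217423, minus strand: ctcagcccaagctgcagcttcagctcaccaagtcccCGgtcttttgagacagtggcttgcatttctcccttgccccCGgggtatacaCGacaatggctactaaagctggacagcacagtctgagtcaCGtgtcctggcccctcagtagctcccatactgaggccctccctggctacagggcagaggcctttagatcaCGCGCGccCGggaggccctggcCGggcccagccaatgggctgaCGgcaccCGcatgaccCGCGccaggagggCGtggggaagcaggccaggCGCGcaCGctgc
Ass1, chr2:31470020-31470319, plus strand: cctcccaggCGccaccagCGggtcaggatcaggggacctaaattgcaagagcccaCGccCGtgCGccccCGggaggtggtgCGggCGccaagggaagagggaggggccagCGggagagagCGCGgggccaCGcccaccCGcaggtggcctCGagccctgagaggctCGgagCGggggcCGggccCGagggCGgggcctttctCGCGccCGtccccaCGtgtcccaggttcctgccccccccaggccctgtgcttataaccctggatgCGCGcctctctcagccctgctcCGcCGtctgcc
Glud1, chr14:34310477-34310776, plus strand: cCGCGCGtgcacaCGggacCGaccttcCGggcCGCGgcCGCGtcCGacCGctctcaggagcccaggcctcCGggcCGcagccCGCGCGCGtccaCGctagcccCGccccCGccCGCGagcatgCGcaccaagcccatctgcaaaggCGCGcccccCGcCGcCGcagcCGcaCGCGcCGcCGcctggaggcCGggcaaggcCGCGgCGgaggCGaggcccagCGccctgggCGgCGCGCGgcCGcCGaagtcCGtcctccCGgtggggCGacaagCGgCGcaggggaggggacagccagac
The window of Otc held 1 CpG, and 14.1% of all 32851 promoters in the table had no more than that. Slc25a13 held 17, Ass1 27 and Glud1 51, a number that 99.4% of the promoters did not exceed. The median over all promoters was 7. Nags held 14, and the start sites of Slc25a15 held 15 and 51. The letters TGACG, a short form of the cAMP response element, were found on either strand of 20.8% of all promoters, and among the 6 genes in those of Slc25a13, 13 bases before the start, and Nags, 32 bases after it. The letters AGGTCA, which many nuclear receptors bind, were found in that of Nags and in 16.3% of all promoters. No match to TTGCNNAA (C/EBP), TGACGTCA, AGAACA, TTCNNNGAA (STAT) or TATAAA was found in these windows, and such matches were found in 10.8%, 1.79%, 19.0%, 8.30% and 13.6% of all promoters. The full glucocorticoid response element and the DR1 element, which hold AGAACA and AGGTCA, were not matched either. A match describes letters only, and methylation was not measured in these libraries.

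Total counts per library were between 18994654 and 22920056, and the 9 genes took between 0.985% and 1.05% of them with vehicle and between 0.796% and 0.803% with FGF19. Values are CPM, counts scaled by TMM to a library of 1000000, where a gene is compared between mice, and the same per kilobase of exon (RPKM) where genes are compared with each other. The library of FGF19 replicate 3 stood apart from the other 2 of its group. Its chi-square distance per degree of freedom was 25.1 to FGF19 replicate 1 and 33.2 to FGF19 replicate 2, while those were 7.10 from each other and vehicle libraries were between 13.3 and 23.7 apart. Counts of calls and of ratios are also given without it. Alb, which encodes albumin and marks hepatocytes, was between 63530 and 70450 CPM in the 6 livers. The summed level of 11 hepatocyte markers was between 125000 and 133000 CPM with vehicle and between 123000 and 139000 CPM with FGF19, or between 122000 and 129000 CPM and between 112000 and 127000 CPM without Fgb. In RNA from whole liver, fewer cells of a type and less RNA per cell cannot be told apart.

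Per kilobase of exon, the cytosolic enzymes were the most abundant members. In vehicle-treated mice Ass1 stood at 1759 ± 24.1 RPKM (SD, n = 3). Asl followed at 997.7 ± 53.7 RPKM and Cps1 at 757.9 ± 73.0 RPKM, with no overlap between them or with Ass1. Ass1 held rank 47 and Cps1 rank 89 by this measure among the 12559 genes tested. Glud1 came next at 229.8 ± 32.3 RPKM. Gls2 and Otc, at 168.1 ± 6.30 and 163.4 ± 4.77 RPKM, overlapped each other, as did the carriers Slc25a13 and Slc25a15 at 102.7 ± 6.91 and 99.2 ± 14.3 RPKM. Nags was the least abundant at 31.1 ± 1.81 RPKM, which still rested on between 1224 and 1690 counts per library. After FGF19 treatment the order of the 4 most abundant genes was the same, and Otc then had a higher mean than Gls2, and Slc25a15 than Slc25a13.

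**Figure D1:**
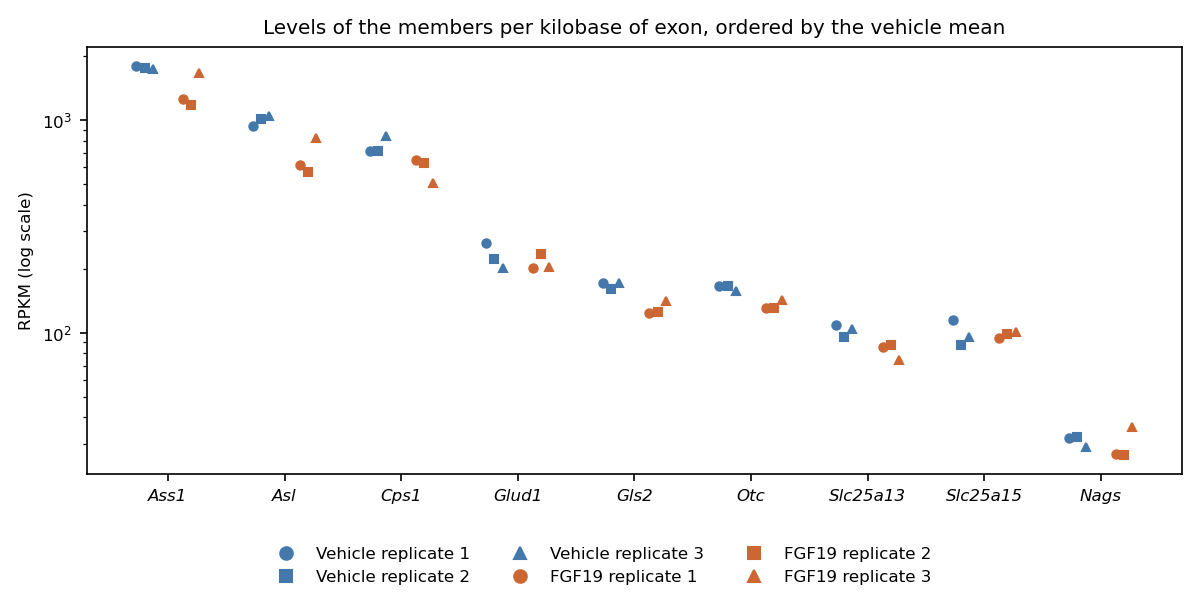
RPKM (CPM per kilobase of exon, log axis) of each of the 9 genes in each mouse, ordered by the vehicle mean, with blue for vehicle and orange for FGF19 and the marker shape for the replicate. The cytosolic enzymes Ass1 and Asl lie highest and Nags lowest, at a vehicle mean of 31.1 RPKM.

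The main comparison asked how FGF19 treatment altered mRNA levels of these genes. All 9 had a negative log2 fold change, between -0.58 and -0.02 with a median of -0.32, where 50.1% of the 12559 genes tested were negative and their median was -0.000763. The number of negative genes was 7 without vehicle replicate 1 or FGF19 replicate 1 and 8 without FGF19 replicate 2. In edgeR's quasi-likelihood test, adjusted over all genes tested, Asl and Gls2 passed the threshold of 0.05, and both fell. That is 2 of 9, where 2.84% of all genes tested were called lower at this threshold. No member was called higher by edgeR or by DESeq2, which called 4.56% and 5.11% of all genes higher, and 0 were higher at an unadjusted p under 0.05, where 11.6% of all genes were. In 6 of the 9 genes (Cps1, Otc, Ass1, Asl, Slc25a13 and Gls2) every FGF19-treated mouse lay below every vehicle-treated mouse, and in 0 above, where 13.8% and 14.5% of all genes did so. The same 6 had an unadjusted p under 0.05, where 11.3% of all genes were lower, and 4 of them (Otc, Asl, Slc25a13 and Gls2) passed p under 0.01, the threshold in the study's methods, where 4.98% did. The members were not chosen at random and rank among the more abundant genes, so these shares describe them and do not test them as a list. The calls were lost with most single libraries left out. Without vehicle replicate 1, 2 or 3 or FGF19 replicate 1 or 2 none of the 9 was called by edgeR, and 1.32%, 1.59%, 0.84%, 0.93% and 0.719% of all genes were called lower. At an unadjusted p under 0.05 these fits had 6, 6, 5, 5 and 5 of the 9 lower, and 9.52%, 9.41%, 8.21%, 8.1% and 7.32% of all genes. Without FGF19 replicate 3 there were 4 (Otc, Ass1, Asl and Gls2), where 7.3% of all genes were called lower. Nags then joined the 6 genes above, which made 7 of 9 lower at an unadjusted p under 0.05, where 15.4% of all genes were, and 7 of 9 without overlap, where 24.5% of all genes were. With DESeq2 there were 3 (Otc, Asl and Gls2), where 4.13% of all genes were called lower. Asl and Gls2 were also the members called with no TMM scaling (3.02%), no filter (2.34%), a filter of 1 CPM (2.95%), the likelihood ratio test (4.61%) and limma-voom (2.85%).

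**Figure D2:**
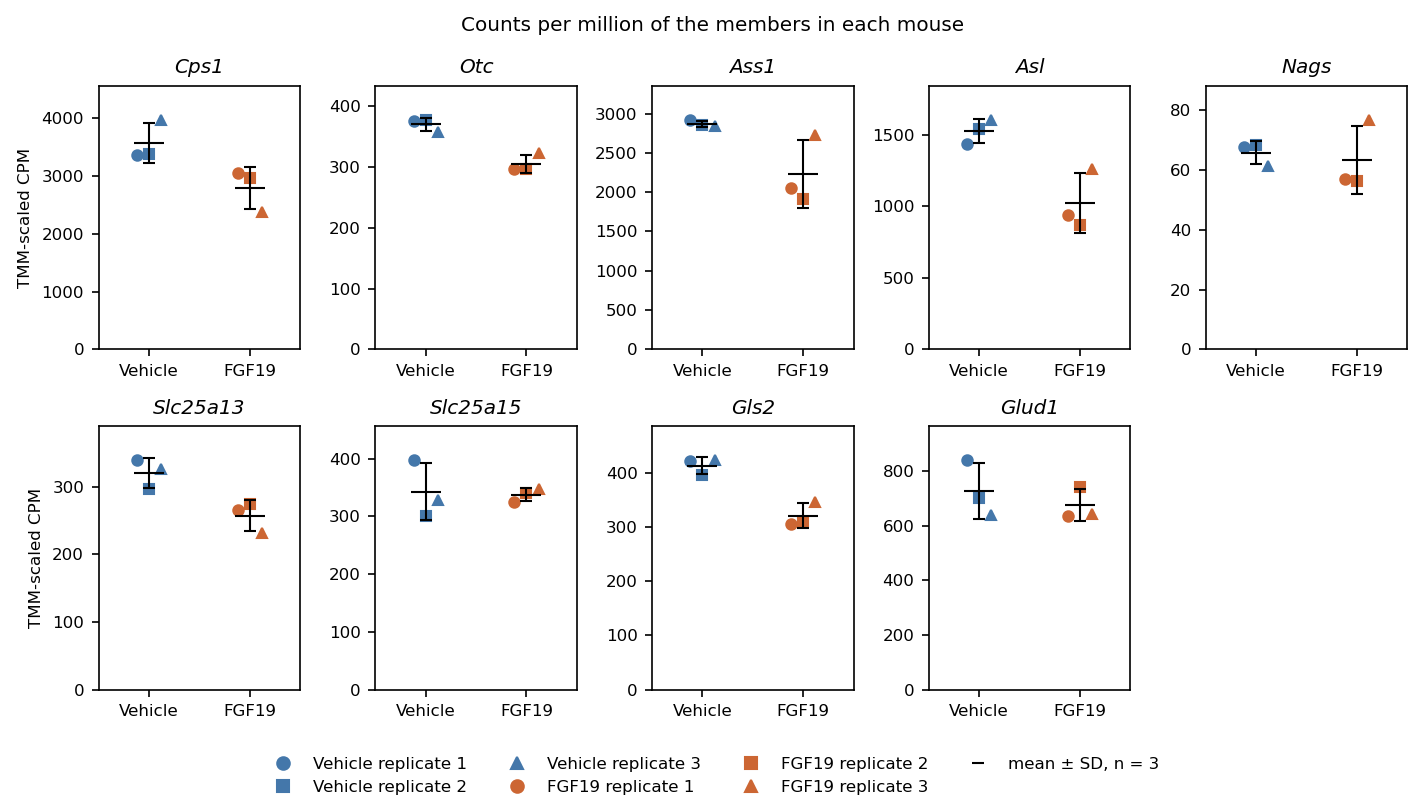
TMM-scaled CPM (linear axes from 0) of each gene in each of the 3 vehicle-treated and 3 FGF19-treated mice, with the mean and SD in black. The groups are apart in Cps1, Otc, Ass1, Asl, Slc25a13 and Gls2, and FGF19 replicate 3 (orange triangle) is the highest FGF19-treated mouse in 6 of the 9 genes and the lowest in Cps1 and Slc25a13.

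Cps1 catalyses the entry step, joining ammonia and bicarbonate. Its gene lies on chromosome 1 of mm9 from 67169640 to 67277022. Its level was 3355, 3380 and 3961 CPM in vehicle replicates 1, 2 and 3 and 3053, 2958 and 2380 CPM in FGF19 replicates 1, 2 and 3. The highest FGF19-treated mouse was only a little below the lowest vehicle-treated mouse, and FGF19 replicate 3 was clearly the lowest of all. Its log2 fold change of -0.35 (standard error 0.124, 95% interval -0.63 to -0.07) did not pass the threshold (adjusted p = 0.125, edgeR's quasi-likelihood test), and it was -0.24 without FGF19 replicate 3.

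Otc, on chromosome X from 9829485 to 9898150, forms citrulline from ornithine and carbamoyl phosphate. Its levels were 376.1, 376.6 and 357.6 CPM with vehicle and 296.5, 296.1 and 322.8 CPM with FGF19. The spread within each group was small and the groups did not overlap. For Otc the log2 fold change was -0.28 (standard error 0.0826, 95% interval -0.46 to -0.09) with an adjusted p of 0.0769 in edgeR's quasi-likelihood test. It was -0.32 without FGF19 replicate 3, with an adjusted p of 0.0217, and DESeq2 gave an adjusted p of 0.0408 with all 6 libraries.

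Ass1 joins citrulline to aspartate, the source of the second nitrogen of urea, and lies on chromosome 2 from 31325790 to 31376190. Vehicle-treated mice were almost level at 2913, 2854 and 2838 CPM. FGF19-treated mice were at 2048, 1916 and 2724 CPM, so that replicates 1 and 2 were well below the vehicle range and replicate 3 just under it. The SD in the FGF19 group was 433.7 CPM against 39.4 CPM in the vehicle group. Over all libraries its log2 fold change was -0.36 (standard error 0.133, 95% interval -0.66 to -0.06, adjusted p = 0.138, edgeR's quasi-likelihood test), and without FGF19 replicate 3 it was -0.53 (adjusted p = 0.00428).

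Asl splits argininosuccinate into arginine and fumarate and lies on chromosome 5 from 130487373 to 130500201. It had the lowest log2 fold change of the 9 genes. Its levels were 1437, 1540 and 1599 CPM with vehicle and 936.7, 869.9 and 1259 CPM with FGF19. No FGF19-treated mouse reached the vehicle range, and replicate 3 was the nearest to it. The mean fell from 1525 ± 82.1 CPM to 1022 ± 207.9 CPM (SD, n = 3), which is 0.670-fold. On the log2 scale the difference was -0.58 (standard error 0.138, 95% interval -0.89 to -0.27) with an adjusted p of 0.0360 in edgeR's quasi-likelihood test, and 3.35% of all genes tested had a value as low or lower. Without FGF19 replicate 3 it was -0.75 (adjusted p = 0.00135). With any other library left out it was between -0.62 and -0.47 and the adjusted p was between 0.0686 and 0.144.

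Nags, on chromosome 11 from 102006901 to 102010790, stood at 67.7, 68.2 and 61.3 CPM with vehicle and 57.1, 56.2 and 76.5 CPM with FGF19. FGF19 replicate 3 was the highest of all 6 mice and the other 2 were below the vehicle range. Its log2 fold change was -0.05 (95% interval -0.34 to 0.23, adjusted p = 0.844, edgeR's quasi-likelihood test). It was 0.01 without FGF19 replicate 1 and 0.03 without FGF19 replicate 2.

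The mitochondrial carriers differed from each other in pattern. Slc25a13, on chromosome 6 from 5991218 to 6167173, was at 339.1, 296.9 and 325.7 CPM with vehicle and 266.1, 274.1 and 231.9 CPM with FGF19. The groups did not overlap, and FGF19 replicate 3 was the lowest, as for Cps1. For Slc25a13 the log2 fold change was -0.32 (standard error 0.0971, 95% interval -0.53 to -0.10) with an adjusted p of 0.0844 in edgeR's quasi-likelihood test. Slc25a15, on chromosome 8 from 23486022 to 23509093, was at 397.2, 301.4 and 329.2 CPM with vehicle and 324.7, 340.8 and 346.8 CPM with FGF19. All FGF19-treated mice lay inside the vehicle range, which vehicle replicate 1 widened. Its log2 fold change was -0.02 (95% interval -0.27 to 0.22, adjusted p = 0.929, edgeR's quasi-likelihood test), and its sign turned without vehicle replicate 1 (0.10) and without FGF19 replicate 1 (0.0052). Slc25a12, the paralog of Slc25a13 that other tissues mainly use, was much lower in counts, at 21.5 ± 1.88 CPM with vehicle and 22.4 ± 1.64 CPM with FGF19 (SD, n = 3, adjusted p = 0.784, edgeR's quasi-likelihood test).

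Gls2, the liver form of glutaminase, feeds ammonia and glutamate into periportal mitochondria. It lies on chromosome 10 from 127631691 to 127647060. Its levels were 421.8, 395.6 and 423.1 CPM with vehicle and 305.5, 309.2 and 347.0 CPM with FGF19. Each group was tight and they were well apart. The mean fell from 413.5 ± 15.5 CPM to 320.6 ± 23 CPM (SD, n = 3), which is 0.775-fold. For Gls2 the log2 fold change was -0.37 (standard error 0.0882, 95% interval -0.57 to -0.17), with an adjusted p of 0.0368 in edgeR's quasi-likelihood test. With any library other than FGF19 replicate 3 left out it was between -0.40 and -0.33 and the adjusted p between 0.0642 and 0.164, and without FGF19 replicate 3 it was -0.42 (adjusted p = 0.00830). Gls2 shares 95 exon bases with Spryd4, where reads were given to neither gene, and Spryd4 had a log2 fold change of 0.18 (adjusted p = 0.488).

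Glud1, on chromosome 14 from 35123913 to 35158219, was at 838.3, 699.1 and 639.4 CPM with vehicle and 636.0, 741.4 and 644.0 CPM with FGF19. The groups overlapped, with vehicle replicate 1 the highest. The log2 fold change was -0.11 (95% interval -0.37 to 0.16, adjusted p = 0.653, edgeR's quasi-likelihood test), and it was 0.01 without vehicle replicate 1.

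**Figure D3:**
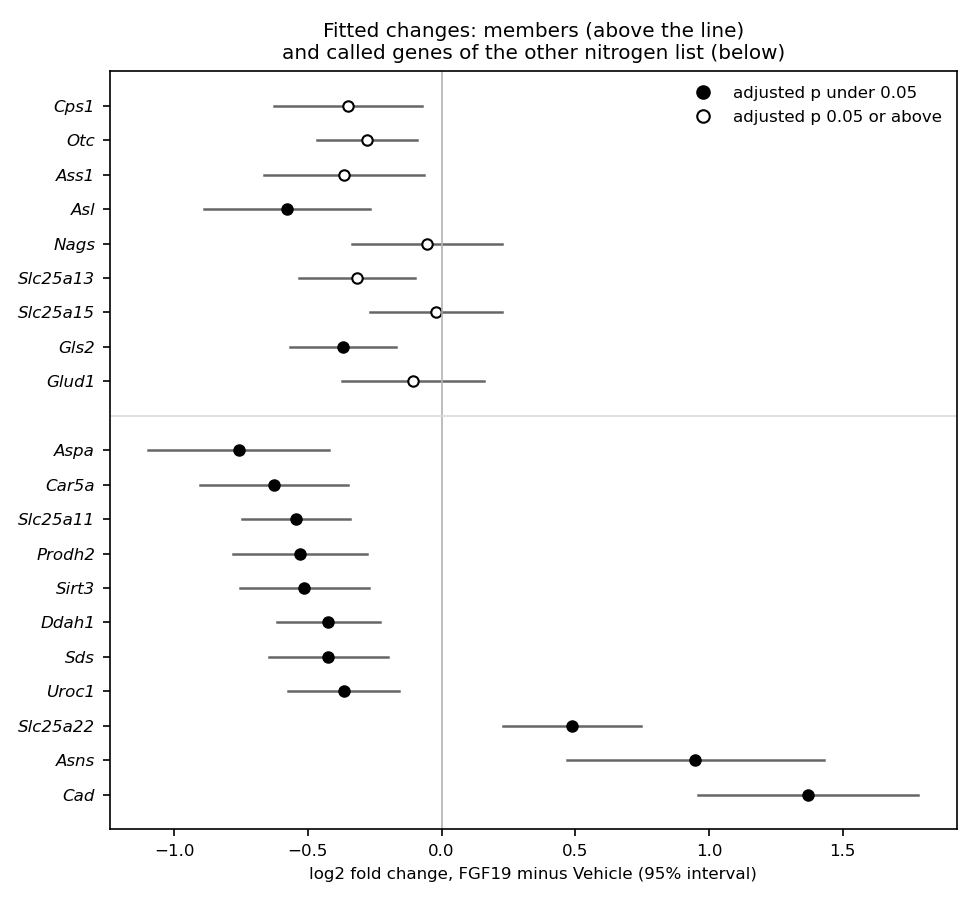
Log2 fold change (FGF19 minus Vehicle) with its 95% interval from edgeR's quasi-likelihood fit for the 9 genes above the line and for the 11 called genes of a wider nitrogen list below it. Filled circles have an adjusted p under 0.05, which among the 9 are Asl at -0.58 and Gls2 at -0.37.

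Leaving out FGF19 replicate 3 moved the 9 genes in both directions. Log2 fold changes became more negative for 6 of them, most of all for Ass1 (-0.53), Asl (-0.75) and Nags (-0.21). They moved towards 0 for Cps1 and Slc25a13, both to -0.24, and for Glud1, to -0.07. The median of the 9 genes was then -0.24 against -0.32 with all libraries.

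**Figure D4:**
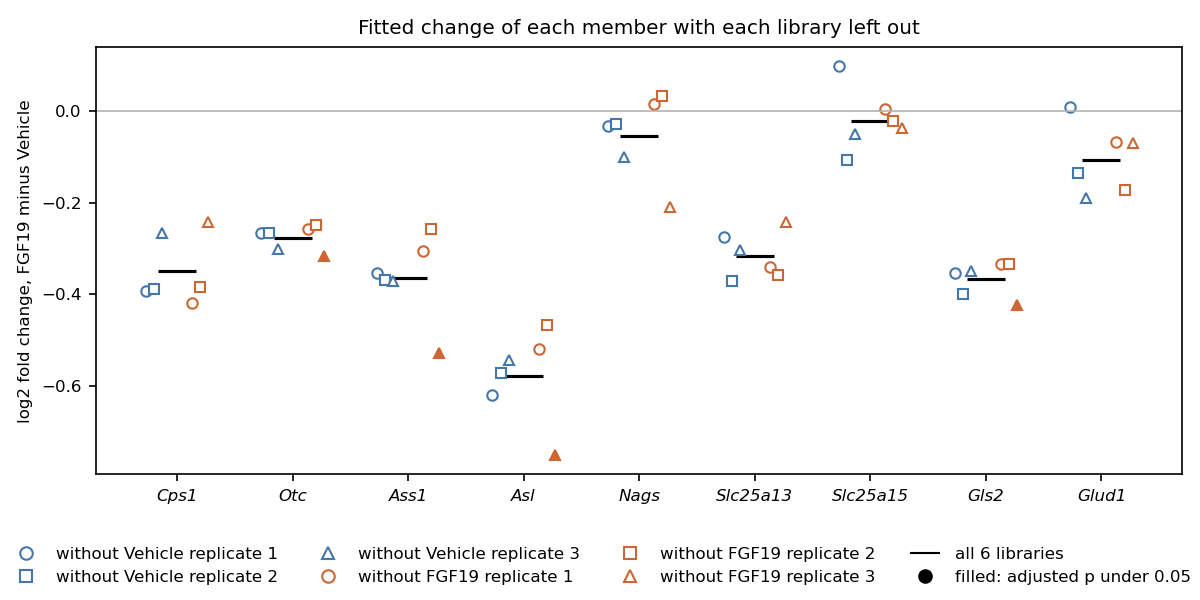
Log2 fold change (FGF19 minus Vehicle) of each gene with all 6 libraries (black bars) and with each library left out (blue for a vehicle, orange for an FGF19 library), filled where the adjusted p was under 0.05. Of the fits with a library left out, the one without FGF19 replicate 3 has filled symbols, for Otc, Ass1, Asl (at -0.75) and Gls2.

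Ratios of genes within a mouse do not depend on how libraries are scaled, and they were examined after the values above had been seen. They are ratios of counts per kilobase and are given as descriptions, since the smallest p that an exact permutation test (two-sided) of 3 against 3 mice allows is 0.1. Of 9 ratios computed, 3 were lower in every FGF19-treated mouse, 1 was higher and 5 overlapped. Without FGF19 replicate 3 these counts were 4, 3 and 2. The ratio of Gls2 to Slc25a22 was bound to separate, since the groups of these genes were already apart in opposite directions. The ratio of Asl to Ass1, the next enzyme upstream, was 0.526, 0.576 and 0.601 with vehicle and 0.488, 0.484 and 0.493 with FGF19. FGF19-treated mice were nearly equal to each other in this ratio and all below the vehicle range, although Ass1 and Asl each varied widely among them. The ratio of Cps1 to Otc, the mitochondrial enzymes, overlapped between the groups, at 4.29, 4.32 and 5.33 with vehicle and 4.96, 4.81 and 3.55 with FGF19, and FGF19 replicate 3 was the lowest. The ratio of Nags to Cps1 overlapped too. Those of Otc to Ass1, Slc25a13 to Ass1 and Gls2 to Glud1 overlapped through FGF19 replicate 3 alone. Otc to Ass1 was 0.0930, 0.0950 and 0.0907 with vehicle and 0.104, 0.111 and 0.0853 with FGF19. Slc25a13 to Ass1 was 0.0608, 0.0543 and 0.0599 with vehicle and 0.0679, 0.0747 and 0.0445 with FGF19, and so higher in FGF19 replicates 1 and 2 and lower in replicate 3, as for Otc. Gls2 to Glud1 was 0.646, 0.726 and 0.849 with vehicle and 0.617, 0.535 and 0.692 with FGF19. The ratio of Slc25a15, the ornithine carrier, to Otc was 0.692, 0.525 and 0.604 with vehicle and 0.718, 0.755 and 0.704 with FGF19, higher in every FGF19-treated mouse. For glutamine, the ratio of Gls2 to Glul, the glutamine synthetase of pericentral hepatocytes, was 0.568, 0.502 and 0.566 with vehicle and 0.474, 0.425 and 0.450 with FGF19. Glul itself was at 858.2 ± 28.2 CPM and 807.3 ± 72.4 CPM (SD, n = 3, log2 fold change -0.09, adjusted p = 0.642, edgeR's quasi-likelihood test).

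**Figure D5:**
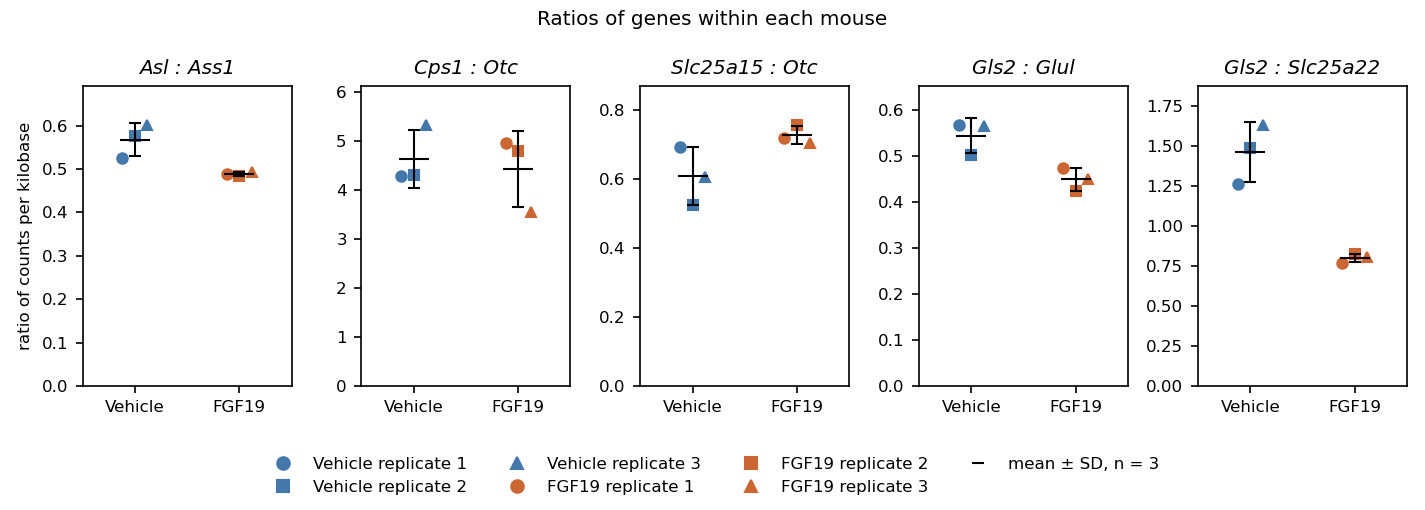
Ratios of counts per kilobase of exon within each of the 3 vehicle-treated and 3 FGF19-treated mice, with mean and SD in black and axes from 0. Asl to Ass1, Gls2 to Glul and Gls2 to Slc25a22 are lower in every FGF19-treated mouse, Slc25a15 to Otc is higher, and Cps1 to Otc overlaps between the groups.

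A wider list of 59 genes around these pathways, covering other carriers, transaminases, amino acid transporters and enzymes that release or use nitrogen, had 53 genes tested. Of these 8 fell and 3 rose at an adjusted p under 0.05, and the median log2 fold change was -0.13. Groups did not overlap for 17 genes on the lower side and 5 on the higher side. The background shares were 2.84% lower and 4.56% higher for calls, and 13.8% lower and 14.5% higher for groups without overlap. With each library left out in turn between 1 and 16 were lower and between 1 and 4 higher. Of all genes, between 91 and 926 were then lower and between 236 and 1015 higher. The highest counts came without FGF19 replicate 3, where 7.3% of all genes were called lower and 1015 of 12692 higher. All 11 genes called with every library were called in that fit too.

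The genes that fell included partners of the members in mitochondria. Car5a, the carbonic anhydrase that supplies bicarbonate to Cps1, was at 38.5, 37.6 and 28.5 CPM with vehicle and 22.4, 22.0 and 23.4 CPM with FGF19 (log2 fold change -0.63, adjusted p = 0.0160, edgeR's quasi-likelihood test). It shares 314 exon bases with BC048644, so its counts are uncertain. Slc25a11, which exchanges malate for 2-oxoglutarate, was at 80.1, 81.4 and 81.4 CPM with vehicle and 55.3, 50.6 and 60.6 CPM with FGF19 (log2 fold change -0.54, adjusted p = 0.00771, same edgeR test). Sirt3, a mitochondrial deacetylase, had a log2 fold change of -0.51 (adjusted p = 0.0209) and shares 69 exon bases with Ric8. Prodh2, which breaks down hydroxyproline, had one of -0.53 (adjusted p = 0.0214), and Aspa, which cleaves N-acetylaspartate, one of -0.76 (adjusted p = 0.0168) at a low level of 8.80 CPM with vehicle. The other 3 that fell were Ddah1, Sds and Uroc1, with log2 fold changes of -0.42, -0.42 and -0.37. Ddah1 degrades methylarginines, Sds releases ammonia from serine, and Uroc1 acts in histidine breakdown.

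The 3 genes that rose were Slc25a22, Asns and Cad. Slc25a22, a mitochondrial glutamate carrier, was at 386.9, 307.0 and 301.5 CPM with vehicle and 460.0, 435.9 and 499.8 CPM with FGF19 (log2 fold change 0.49, adjusted p = 0.0341, edgeR's quasi-likelihood test). The ratio of Gls2 to Slc25a22 was 1.26, 1.49 and 1.63 with vehicle and 0.770, 0.822 and 0.805 with FGF19. Cad, whose product holds the cytosolic carbamoyl phosphate synthetase of pyrimidine synthesis, rose from 8.42 ± 0.638 CPM to 21.8 ± 5.47 CPM (SD, n = 3, log2 fold change 1.37, adjusted p = 0.00259, same edgeR test). It stood at 22.8, 26.7 and 15.9 CPM in FGF19 replicates 1, 2 and 3. Cps1, the mitochondrial form, is described above and was not called. Asns, which makes asparagine from aspartate and glutamine, was at 2.73 ± 0.205 CPM and 5.27 ± 1.33 CPM (SD, n = 3, log2 fold change 0.95, adjusted p = 0.0286, same edgeR test).

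Of 19 regulators and neighbouring genes on a second list, such as Hnf4a, Cebpa, Nr3c1, Ppargc1a and the glucagon receptor gene Gcgr, 1 fell and 1 rose, near the shares of all genes (2.84% and 4.56%), and the median log2 fold change was -0.12. With each library left out in turn between 0 and 4 were lower and 1 or 2 higher, the highest counts without FGF19 replicate 3. In that fit the median was 0.02, and 7.3% of all genes were called lower and 1015 of 12692 higher. Nr1h4, which encodes the bile acid receptor FXR, was at 162.7, 140.3 and 149.1 CPM with vehicle and 84.9, 93.1 and 117.3 CPM with FGF19 (log2 fold change -0.61, adjusted p = 0.0185, edgeR's quasi-likelihood test). Nr0b2, which encodes the repressor SHP, was at 13.9, 21.8 and 30.9 CPM with vehicle and 64.5, 54.5 and 54.8 CPM with FGF19 (log2 fold change 1.38, adjusted p = 0.00823, same edgeR test).

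Markers of liver zones and of other cells were read beside these results. Of 16 pericentral markers 1 fell (Slco1b2) and none was called higher in edgeR's test, where 2.84% and 4.56% of all genes were. Their median log2 fold change was -0.31, and the groups did not overlap for 6 of the 16, all lower, where 13.8% of all genes did so. Their summed level, mostly Cyp2e1, was between 13800 and 15200 CPM with vehicle and between 10600 and 12300 CPM with FGF19. Of 13 periportal markers 2 fell (Sds and Uroc1) and 1 rose (Ctsc), the median was -0.06, and the groups did not overlap for 5 on the lower and 1 on the higher side. Their sum, mostly Alb, was between 84600 and 88600 CPM with vehicle and between 78900 and 84800 CPM with FGF19. Sds and Uroc1 are also on the wider nitrogen list. Of the 11 hepatocyte markers 1 rose, Fgb, a fibrinogen chain, from 4281 ± 590.8 CPM to 10920 ± 512.9 CPM (SD, n = 3). The median of that list was -0.10, and Cyp2e1, Hnf4a and Apoa2, at -0.39, -0.31 and -0.26, were the 3 without overlap on the lower side. Of 8 macrophage markers listed and tested 2 rose, Marco and Cd68, the median was -0.07, and Vsig4, at -0.54, had groups without overlap on the lower side (adjusted p = 0.0755, edgeR). The macrophage sums overlapped at 212 to 263 CPM and 213 to 254 CPM. Granulocyte markers summed to between 2.48 and 3.87 CPM with vehicle and between 6.38 and 9.33 CPM with FGF19, and S100a9 rose among the 3 tested. The sums overlapped for endothelial markers (252 to 270 and 237 to 261 CPM), stellate cell and fibroblast markers (211 to 294 and 205 to 255 CPM), cholangiocyte markers (72.3 to 89.8 and 56.4 to 87.2 CPM) and lymphocyte markers (4.86 to 8.44 and 4.84 to 6.89 CPM), with no gene called. Umod, Slc12a1 and Aqp2, which mark kidney, a tissue that also expresses Ass1 and Asl, had 0 counts in every library, which allows up to 0.159 CPM. Of 6 kidney and intestine markers only Fabp2 was tested, and the list summed to 75.0 to 99.5 CPM and 88.1 to 90.5 CPM. Red cell markers summed to 57.2 to 78.6 CPM and 43.6 to 57.5 CPM, all from Alas2. The 4 globin genes had 0 counts in every library, but the pairs share 1112 and 606 exon bases in the annotation, so reads there were left out and these zeros say nothing about blood. Pancreas markers summed to 5.86 to 7.26 CPM and 6.20 to 6.62 CPM. Without FGF19 replicate 3, 7.3% of all genes were called lower and 1015 of 12692 higher. Calls in that fit were 4 lower and 0 higher of the pericentral and 3 and 1 of the periportal markers. They were 4 and 1 of the hepatocyte and 1 and 2 of the macrophage markers. Of the other markers, the stellate cell list then had 0 lower and 1 higher. The endothelial, cholangiocyte and red cell lists had 1 and 0 each. Of the granulocyte markers tested with all libraries, Csf3r and S100a9 were then called higher and Cxcr2 was not, all at low levels. A granulocyte gene that passed the filter only in this fit, through its level in the FGF19 libraries, is left out. The part of these shifts in the levels of the 9 genes was not tested.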

How the data were processed

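Liver RNA of 3 vehicle-treated and 3 FGF19-treated mice was sequenced as paired-end reads, and groups and replicate numbers were taken from the sample titles. Per the file headers, the deposited counts are raw numbers of reads on exons, made by the authors with featureCounts 1.5.2 and an mm9 annotation. Strand was not used, mates were counted as separate reads, and reads aligned to several places or to exons of several genes were left out, so antisense and near-identical genes are uncertain. The processing notes name STAR 2.5.3a and Trimmomatic 0.36, and the paper gives other versions of STAR. A deposited table with the authors' own fold changes and p-values was not used.

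The tests ran under R 4.3.3, with edgeR version 4.0.16 as the main tool. Genes passing filterByExpr (12559 of 23284) were scaled by TMM and compared by the quasi-likelihood test without covariates, with Benjamini-Hochberg adjustment over all genes tested and a threshold of 0.05. Standard errors were taken as the log2 fold change divided by the root of F. RPKM used the exon length in the files. The fits were tested on simulated data with planted changes larger than those of the members, so changes of the members' size were not covered. No 2 libraries agreed within sampling noise. P-values measure the spread between mice. A count of 0 allows up to 3 counts (0.136 to 0.159 CPM), and as reads carry no molecular identifiers this covers counting error only.

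The lists, like the members, were chosen with earlier results of these data known. Of the members 1, and 2 genes of the wider list, are not reported here and enter no count of members or list genes. By rule, all members reported are named, as are Slc25a12 and Glul, called markers, and in each list up to 5 called genes on either side whose groups do not overlap. Ddah1, Sds and Uroc1 were added after their values were seen. The alternatives were DESeq2 1.42.0, limma-voom (limma 3.58.1), the likelihood ratio test, no TMM scaling, no filter, a filter of 1 CPM in every library, p under 0.01, the replicate number as a block, and each library left out. Ratios, lists and the overlap of groups without FGF19 replicate 3, and the hepatocyte sum without Fgb, were added after the values were seen. Promoters came from RefSeq (GRCm38.p6), and no coordinates were converted between builds.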

Additional observations from a re-analysis of the deposited data

How the results depend on the processing

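Asl and Gls2 were called with edgeR's quasi-likelihood test, the likelihood ratio test, limma-voom, DESeq2, no TMM scaling, no filter and the stricter filter, and Asl but not Gls2 with the replicate number as a block. With 3 libraries a group, these calls were lost when any library other than FGF19 replicate 3 was left out. Leaving out each library in turn gave between 0 and 4 members lower, a median log2 fold change of the members between -0.368 and -0.242, other nitrogen genes lower between 1 and 16 and higher between 1 and 4, regulators lower between 0 and 4 and higher between 1 and 2, and all genes lower between 91 and 926 and higher between 236 and 1015. The lowest of the last counts came without FGF19 replicate 2 (lower) and vehicle replicate 3 (higher), and the highest without FGF19 replicate 3. A fit with 2 libraries in a group also has fewer samples.

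Signs that turned were those of Slc25a15 and Glud1 without vehicle replicate 1 (0.0977 and 0.00977), Nags and Slc25a15 without FGF19 replicate 1 (0.0149 and 0.00521) and Nags without FGF19 replicate 2 (0.0323), none of which was called in any fit. Over the libraries left out Nags ranged from -0.209 to 0.0323, Slc25a15 from -0.107 to 0.0977 and Glud1 from -0.189 to 0.00977. At p under 0.01, 4 members and 626 of all genes were lower. With the likelihood ratio test 2 regulators and 579 of all genes were lower, and the cause was not tested.

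With the replicate number as a block, 1 member was lower (Asl, while Gls2 had an adjusted p of 0.105 in edgeR), other nitrogen genes were 5 lower and 1 higher, and all genes 164 lower and 370 higher. The deviations of same-numbered mice correlated at -0.048, -0.227 and -0.208, and those of mice with unlike numbers between -0.142 and 0.264. The numbers were therefore not taken to pair the mice, and a call lost in this fit is not read as a weaker effect. Whether the numbers stand for a batch was not tested. The share of higher genes among all called was 61.6%, 55.3% with DESeq2 and 57.7% without TMM scaling, 69.3% with the block, and between 52.3% (without FGF19 replicate 3) and 75.2% (without FGF19 replicate 2) with a library left out.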
